A study of Mus musculus with 8 samples.

Results

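The cathepsins are the main protein-degrading enzymes of the lysosome, and transcripts of 9 of them, Ctsa, Ctsb, Ctsc, Ctsd, Ctsf, Ctsh, Ctsl, Ctss and Ctsz, were followed in the mouse cerebellum with age. The members were the rows of the deposited count tables that carry these 9 gene symbols, of 17700 genes listed, and all 9 had enough counts to be tested. RNA-seq libraries were made from whole cerebellum of 8 C57BL/6JN mice, an inbred strain, with no genetic change or drug named in the labels. The old group held males of 93 and 83 weeks (old 1 and old 3) and females of 83 and 102 weeks (old 2 and old 4). The young group held 2 males of 19 weeks (young 1 and young 2) and females of 19 and 22 weeks (young 3 and young 4). The series' own design text speaks of liver and of different ages, and the sample labels were followed. The marker genes fit the sample labels: granule neuron markers summed to between 4550 and 7710 CPM (counts scaled to the library total, with edgeR's TMM factors) in each library, and 7 liver genes to between 0.682 and 84.2 CPM. The liver sums were uneven, at 84.2, 23.6 and 21.2 CPM in old 2, old 3 and young 4 and at most 9.63 CPM in the others. An alternative fit below leaves out old 2, old 3 and young 4, the libraries with the highest liver sums. Old 2 and old 3 are also the old mice of 83 weeks, so that fit keeps only those of 93 and 102 weeks. In it, an effect of liver RNA and an effect of age within the old group cannot be told apart.

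Cathepsins are made as inactive precursors, tagged with mannose 6-phosphate in the Golgi, delivered to endosomes and lysosomes, and activated there by cleavage at acidic pH. Most are cysteine proteases related to papain: cathepsins L, S and F cut within proteins, cathepsin B both cuts within proteins and trims their C-terminal ends, cathepsins C and H remove residues from the N-terminal end, and cathepsin Z (also called X) trims the C-terminal end. Cathepsin D is an aspartic protease and cathepsin A a serine carboxypeptidase that also protects other lysosomal enzymes. In brain, cathepsin S is chiefly a product of microglia, the resident macrophages, while loss of cathepsin D or F leads to storage of undigested material in neurons.

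Totals were 6079485 to 7236720 counts per library, so that 3 counts of a gene, the limit used for detection, equal 0.421 to 0.511 CPM. This limit covers counting error only. The lowest count of any of the 9 genes was 18, for Ctsh in young 3, and Ctsb reached 2575 counts. The libraries differed within each age in contents other than the cathepsins. The summed choroid plexus markers ranged from 53.3 to 1070 CPM among old and from 41.0 to 477 CPM among young libraries. All 11 of these markers had a positive log2 fold change, old minus young, at a median of 1.26, where 48.6% of all genes tested were positive. Each of the 11 overlapped between the ages. Old 4 had the lowest granule neuron score, the median deviation of those markers from their mean over the 8 libraries, at -0.39 on the log2 scale.

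Promoter sequences of Ctss, Ctsd and Ctsa are shown because these genes carry the contrast between the cathepsins in the values that follow. RefSeq promoter windows (GRCm38.p6) were matched for 7 of the 9 genes. Those of Ctsb and Ctsh were not matched. Motifs were searched on both strands in windows of 250 bases before to 50 bases after the start site. One motif was CACGTG, the E-box core. A longer form of it, TCACGTGA, is the core of the CLEAR element bound by TFEB, the regulator of lysosomal genes, so every match of the longer form is also one of the shorter. The core bound by PU.1, a transcription factor of myeloid cells such as microglia, was searched as GAGGAA. The core of the interferon-stimulated response element (ISRE) was searched as a pair of GAAA repeats spaced by 2 bases of any kind. The printed sequences run 5′ to 3′ on the gene's strand, from 170 bases before to 30 bases after the start site, with motif matches in capitals. The Ctss window is chr3:95526616-95526815 on the + strand, the Ctsd window chr7:142387798-142387997 on the - strand, and the Ctsa window, at the downstream of its 2 RefSeq start sites, chr2:164833603-164833802 on the + strand.
Ctss: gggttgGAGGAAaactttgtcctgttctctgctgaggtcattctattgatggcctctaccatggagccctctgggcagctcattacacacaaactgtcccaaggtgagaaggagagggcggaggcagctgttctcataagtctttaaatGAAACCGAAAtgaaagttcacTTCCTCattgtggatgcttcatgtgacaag
Ctsd: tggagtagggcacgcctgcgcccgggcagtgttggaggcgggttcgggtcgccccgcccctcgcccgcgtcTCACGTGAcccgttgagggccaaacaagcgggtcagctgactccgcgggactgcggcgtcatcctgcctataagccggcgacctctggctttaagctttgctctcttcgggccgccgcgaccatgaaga
Ctsa: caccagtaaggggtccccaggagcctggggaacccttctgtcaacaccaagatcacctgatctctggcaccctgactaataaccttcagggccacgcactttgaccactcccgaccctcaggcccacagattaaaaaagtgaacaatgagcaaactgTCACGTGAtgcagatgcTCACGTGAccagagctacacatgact

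The Ctss window held GAGGAA starting at position -164 and, as its reverse complement, at position 1, counted from the start site, and the ISRE core at position -21. TCACGTGA stood at position -99 of Ctsd and at positions -13 and 5 of the downstream Ctsa start, and in no other window of the cathepsins. Of 32851 RefSeq promoter windows of this length, 0.974% held TCACGTGA, 7.15% CACGTG, 28.3% GAGGAA and 3.44% the ISRE core. CACGTG without the longer core was found at position -245 of Ctsd, -79 of Ctsf and -236 of Ctsl, and GAGGAA, as its reverse complement, at positions -196 and -149 of Ctsc. The Ctsz window and the upstream Ctsa window held none of the 4. These are matches of letters, and binding was not measured.

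The comparison of old with young mice asked how cathepsin transcript levels differ with age. Ctss had the largest difference of the 9, and Ctsd, Ctsc and Ctsh had smaller positive ones, with wide errors for Ctsc and Ctsh. Ctsb, Ctsa, Ctsl and Ctsf lay close to 0, and Ctsz, at a log2 fold change of 0.27, lay in between. None of the 9 passed a threshold of 0.05 after Benjamini-Hochberg adjustment over the 14191 genes tested, in the quasi-likelihood test of edgeR with a term for sex. Of all genes, 0.12% passed, 0.0987% with old higher and 0.0211% with old lower. At an unadjusted p under 0.05, 3 of the 9 were higher in old mice (Ctss, Ctsd and Ctsc) and 0 lower, against 5.25% and 5.76% of all genes. The log2 fold change, old minus young, was positive for 7 of the 9, with a median of 0.27, against 48.6% positive and a median of -0.01 over all genes tested. Of the other tools, DESeq2's Wald test called 2 of the 9, Ctss and Ctsd, both higher in old mice, where it called 0.641% of all genes higher, and limma-voom called 0.

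**Figure D1:**
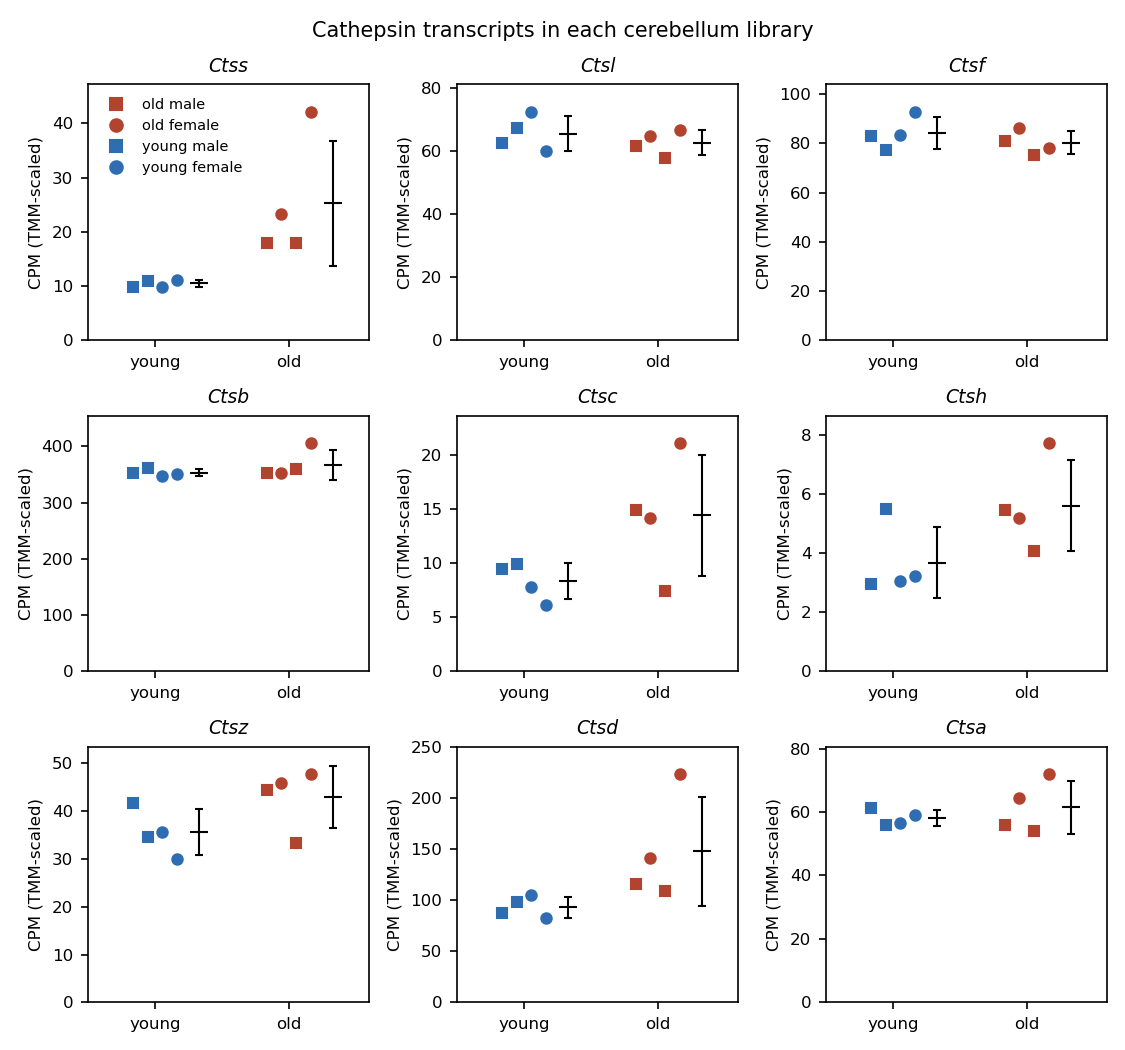
CPM of each cathepsin in the 8 libraries, with young in blue, old in red, squares for males and circles for females. Bars show the mean and SD of the 4 libraries of an age. For Ctss the old values (17.9 to 42.1 CPM) all lie above the young ones (9.89 to 11.1 CPM), whereas those of Ctsb, Ctsf, Ctsl and Ctsa overlap.

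Among the cysteine proteases that cut within proteins, Ctss encodes the enzyme that trims the invariant chain during antigen presentation by MHC class II and stays active at neutral pH. It stood at 18.0, 23.3, 17.9 and 42.1 CPM in old 1 to old 4 and at 9.93, 11, 9.89 and 11.1 CPM in young 1 to young 4. The 4 young libraries lay within a narrow band, every old library was above it, and old 4, the mouse of 102 weeks, was far above the other 3. The old mean was 25.3 ± 11.5 CPM (SD, n = 4), the young mean 10.5 ± 0.651 CPM (SD, n = 4). The log2 fold change was 1.24 ± 0.23 (SE), or 2.36-fold with a 95% interval of 1.65 to 3.37, and edgeR's adjusted p = 0.0757. By its p for age Ctss ranked at place 52 of 14191 genes. In whole tissue, more cells of a type and more RNA per cell cannot be told apart. Without old 4 the log2 fold change was 0.94, with an adjusted p of 0.0512 by the same test.

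Groups without overlap were found for 2 of the 9, Ctss and Ctsd, both with old higher, where 3.15% of all genes tested showed that and 3.42% the reverse. Ctss passed in 5 of 20 alternative fits, namely DESeq2 (adjusted p = 0.000264), age in weeks (0.00795, where 0.655% of genes were called higher in old), a granule neuron covariate (0.0404, 0.444%), the fit without old 2 (0.0358, 0.406%) and the fit without old 2, old 3 and young 4 (0.012, 1.09%). The adjusted p reached 0.288 at most over the 20, in the fit with the replicate number as a block, and the log2 fold change ran from 0.94 to 1.37.

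Ctsl, a broadly expressed endopeptidase, and Ctsf, an endopeptidase with an unusually long propeptide, did not share this difference in level. Levels of Ctsl lay between 57.7 and 66.6 CPM in old and between 59.8 and 72.3 CPM in young libraries, and Ctsf between 75.3 and 86.2 and between 77.3 and 92.7 CPM. Both ranges overlapped. The log2 fold changes were -0.06 ± 0.09 and -0.07 ± 0.08 (SE), with 95% intervals of -0.25 to 0.13 for Ctsl and -0.24 to 0.10 for Ctsf. These intervals leave out a difference of the size of the lower bound of Ctss, 0.72, in either direction. Exons of Ctsl share 1742 bases with Gm47123, an antisense gene that the deposited tables do not list, and the strand setting of the counting is not given in the sources used here. They also share 395 bases with Gm49230, a processed pseudogene on the same strand that is not listed either.

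Among the exopeptidases, Ctsb, which also cuts within proteins, was the most counted of the 9. Its level was 352, 352, 359 and 406 CPM from old 1 to old 4, and young 1 to young 4 were at 352, 361, 347 and 351 CPM. Only old 4 stood above the highest young value. Its log2 fold change was 0.06 ± 0.07 (SE), with a 95% interval of -0.11 to 0.22, and -0.001 without old 4. Its exons share 774 bases with Fdft1 on the opposite strand, and reads from that stretch cannot be told apart without strand.

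Ctsc encodes the dipeptidyl peptidase that activates the granule proteases of leukocytes. Its level was 14.9, 14.2, 7.39 and 21.1 CPM from old 1 to old 4, and young 1 to young 4 were at 9.46, 9.88, 7.84 and 6.17 CPM. Old 1, old 2 and old 4 lay above every young library, while old 3 lay among the young values. This gave a log2 fold change of 0.78 ± 0.29 (SE), with edgeR's adjusted p = 0.357. It was 1.03 without old 3 and 0.55 without old 4, and the adjusted p was 0.0366 only in the fit without old 2, old 3 and young 4.

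Ctsh, an aminopeptidase, was the scarcest, with 18 to 49 counts in a library. It was at 5.45, 5.18, 4.09 and 7.73 CPM in old 1 to old 4 and at 2.95, 5.49, 3.07 and 3.23 CPM in young 1 to young 4. Young 2 lay apart from the other young libraries, within the old range. Its log2 fold change was 0.60 ± 0.28 (SE), with an adjusted p of 0.461 by edgeR. It was 0.90 without young 2 and 0.39 without old 4.

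Ctsz, a carboxypeptidase found in many macrophages, stood at 44.4, 45.9, 33.3 and 47.7 CPM in old 1 to old 4 and at 41.7, 34.5, 35.6 and 30 CPM in young 1 to young 4. As for Ctsc, old 1, old 2 and old 4 lay above every young library and old 3 did not. This corresponds to a log2 fold change of 0.27 ± 0.14 (SE), with a 95% interval of -0.02 to 0.57 and an adjusted p of 0.495 by edgeR. It was 0.17 without young 4 and 0.15 with a choroid plexus covariate, which gave 0.51 for Ctsc.

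Ctsd, the aspartic protease, had the second difference without overlap. It stood at 116, 142, 109 and 224 CPM in old 1 to old 4 and at 87.5, 98.0, 105 and 82.4 CPM in young 1 to young 4. The lowest old library, old 3, lay just above the highest young one, and old 4 was again the highest. The old mean was 148 ± 53.1 CPM (SD, n = 4), the young mean 93.1 ± 10.1 CPM (SD, n = 4). The log2 fold change was 0.63 ± 0.19 (SE), or 1.55-fold with a 95% interval of 1.15 to 2.08, and edgeR's adjusted p = 0.261. Without old 4 it was 0.41, and with all libraries the adjusted p by DESeq2 was 0.0271. With a granule neuron covariate the log2 fold changes of Ctsd, Ctsc and Ctsh were 0.42, 0.48 and 0.32. Exons of Ctsd share 808 of their 2351 bases with Gm49369, a protein-coding gene on the same strand that the deposited tables do not list, so its counts and its level per kb are uncertain to that extent.

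Ctsa, the serine carboxypeptidase, overlapped between the ages, at 53.9 to 72.0 CPM in old and 56.0 to 61.4 CPM in young libraries. Its log2 fold change was 0.07 ± 0.09 (SE), with a 95% interval of -0.13 to 0.28. Its exons share 495 bases with Pltp and 324 bases with Neurl2, both on the opposite strand.

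Within the old group most cathepsins had the same mice at the ends of their range. Old 4 had the highest value among the old libraries for 8 of the 9 genes, all but Ctsf, and old 3 the lowest for 8 of the 9, all but Ctsb. Of all genes tested, 22% were highest among old libraries in old 4 and 26.7% lowest in old 3. Old 4 was also the highest of all 8 libraries for 7 cathepsins, against 11.7% of genes. Old 1 and old 2 stood in no common order, with Ctsc and Ctsh higher in old 1 and Ctsa, Ctsd, Ctsf, Ctsl, Ctss and Ctsz higher in old 2.

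**Figure D2:**
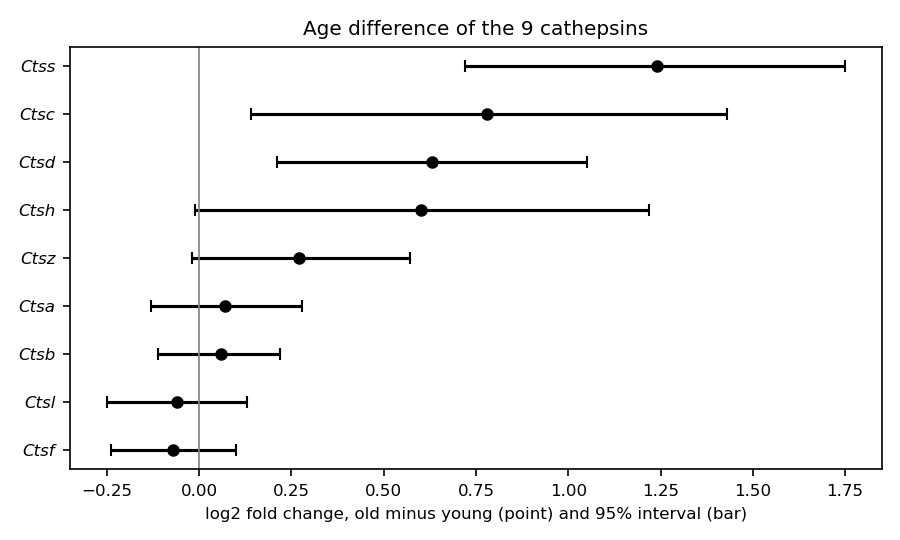
Log2 fold change of each cathepsin, old minus young, from the edgeR fit with a term for sex, as points with 95% intervals as bars. The intervals of Ctss, Ctsc and Ctsd lie above 0, those of the other 6 include 0, and no gene passed after adjustment over all genes.

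Levels of different genes were compared per kilobase of annotated exon, as CPM per kb. The exon lengths ran from 1358 bases for Ctss to 6489 bases for Ctsl, whose longest transcript has 6168 bases. Which transcript forms were present was not measured, so the order and the shares below hold for these annotated lengths only. In young cerebellum Ctsb was the highest at 58.3 ± 1.01 CPM per kb (SD, n = 4), followed by Ctsd at 39.6 ± 4.28, Ctsz at 24.6 ± 3.34, Ctsf at 16.7 ± 1.27, Ctsa at 12.3 ± 0.537, Ctsl at 10.1 ± 0.847 and Ctss at 7.71 ± 0.479 CPM per kb. Ctsc at 1.44 ± 0.291 and Ctsh at 0.818 ± 0.269 CPM per kb came last, and their young values overlapped, as no other neighbours in this order did. In old cerebellum the order was Ctsd (62.9 ± 22.6 CPM per kb), Ctsb (60.7 ± 4.37), Ctsz (29.7 ± 4.49), Ctss (18.7 ± 8.45), Ctsf, Ctsa, Ctsl, Ctsc and Ctsh, so that Ctss stood at place 4 against 7 in the young. Old values overlapped between Ctsd and Ctsb, Ctsz and Ctss, Ctss and Ctsf, Ctsf and Ctsa, and Ctsc and Ctsh. With the longest transcript as the length, Ctsf came before Ctsz in young mice, and Ctsb stayed above Ctsd in the old mean, at 77.4 against 69.5 CPM per kb. By that length Ctss came at place 5 in the old mean, after Ctsf at 38.3 and Ctsz at 29.7 CPM per kb.

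The make-up of the summed cathepsin level per kb differed between the ages in the share of Ctss. It made up 6.87%, 8.1%, 7.36% and 11.4% from old 1 to old 4. The young libraries, 1 to 4, gave 4.22%, 4.65%, 4.15% and 4.98%. The share of Ctsd was 25.6% to 35% in old and 21.4% to 25.4% in young libraries, and that of Ctsb 24.6% to 33.1% and 32.7% to 35.4%. Ctsl held 3.76% to 4.96% in old and 5.57% to 6.34% in young libraries. Ctss and Ctsd thus held more of the pool in every old than in every young library, Ctsl, Ctsf and Ctsa less, while the shares of Ctsb, Ctsz, Ctsc and Ctsh overlapped. The shares of a library sum to the whole, so a larger share of one gene lowers those of the others. The summed level was 193, 212, 179 and 273 CPM per kb in old 1 to old 4 and 164 to 176 CPM per kb in young libraries.

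**Figure D3:**
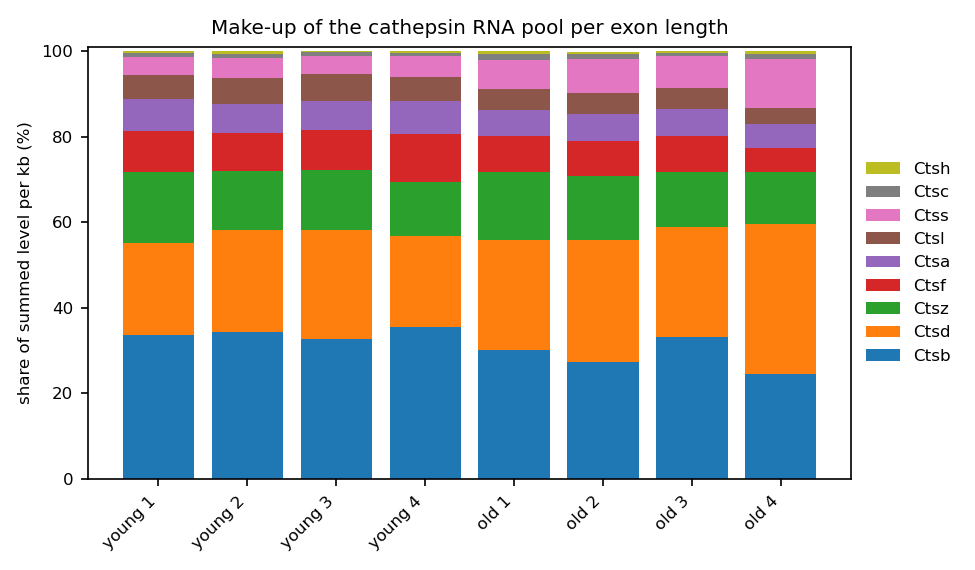
Share of each cathepsin, in percent, in the summed CPM per kb of exon of the 9 genes, one bar per library. The Ctss segment takes 4.15% to 4.98% of the young bars and 6.87% to 11.4% of the old bars.

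Microglia markers moved with the cathepsins that were higher in old mice. None of the 20 markers, which include no cathepsin, was at 0 in any library, and their summed level was 334, 330, 283 and 565 CPM in old 1 to old 4 and 188, 236, 228 and 178 CPM in young 1 to young 4. Old 4 was the highest and old 3 the lowest of the old libraries, as for the cathepsins. The log2 fold change was above 0 for all 20, at a median of 0.78 and from 0.19 for Siglech to 1.86 ± 0.32 (SE) for Ptprc. None passed by edgeR over all genes, 15 had an unadjusted p under 0.05, and 11 did not overlap between the ages, all with old higher. Over all genes tested, these shares with old higher were 5.25% and 3.15%. The defining markers P2ry12, Tmem119, Cx3cr1 and Csf1r had log2 fold changes of 0.39, 0.76, 0.68 and 0.35. The part of microglia in the cathepsin values was not tested beyond the ratios that follow.

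Each cathepsin was then set against the mean log2 CPM of these 20 markers in the same library. Ctss stood above the marker mean by 0.58, 0.88, 0.76 and 1.06 in old 1 to old 4 and by 0.56, 0.35, 0.27 and 0.66 in young 1 to young 4, on the log2 scale. The difference between the ages was 0.36 (exact two-sided permutation test over 70 regroupings, p = 0.0571, where 4 against 4 can give 0.0286 at the smallest), and the groups overlapped through old 1 and young 4. The marker mean itself was higher in old mice by 0.80. A gene at the same level at both ages thus comes out lower in old mice by about that much. For Ctsd, Ctsc and Ctsh the same difference, old minus young, was -0.19, -0.10 and -0.22. For Ctsl, Ctsf, Ctsb and Ctsa the differences were -0.86, -0.87, -0.75 and -0.73, and for Ctsz -0.53, given with no test.

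**Figure D4:**
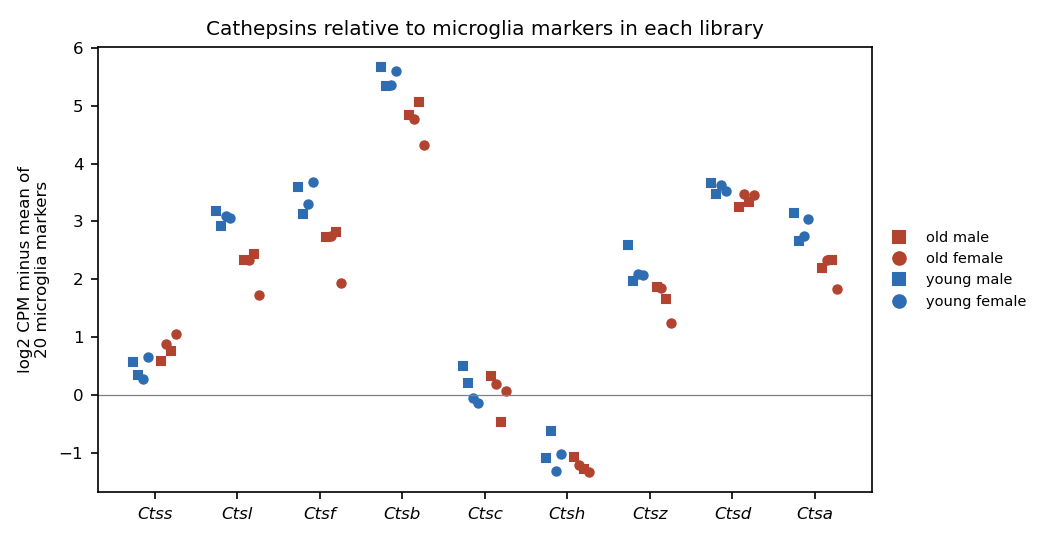
Log2 CPM of each cathepsin minus the mean log2 CPM of 20 microglia markers in the same library, with young in blue, old in red, squares for males and circles for females. Ctsb, Ctsl, Ctsf, Ctsa and Ctsz lie lower in every old than in every young library, while the values of Ctss, Ctsc and Ctsh overlap. Those of Ctsd run from 3.25 to 3.47 in old and from 3.47 to 3.66 in young libraries. The marker mean is 0.80 higher in old mice, which lowers a gene that is level with age by about that much.

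The summed markers of border macrophages, of neutrophils, and of T and NK cells were lower in level than those of microglia. The 8 border macrophage markers summed to 16.6 to 37.9 CPM in old and 14.3 to 23.5 CPM in young libraries. Of these, 5 were tested, all positive, with a median log2 fold change of 0.28 and none past the test, such as Cd163 at 0.46 ± 0.27 (SE), F13a1 at 0.40 ± 0.29 and Mrc1 at 0.28 ± 0.40. Pf4 and Ms4a7 were at 0 in at least 1 library. The 6 neutrophil markers summed to 18.0, 3.17, 2.36 and 13.7 CPM in old 1 to old 4 and to between 0.314 and 2.39 CPM in young libraries, and each was at 0 in at least 1 library. Of these, 3 were tested, with fitted log2 fold changes of 3.63 ± 1.28 (SE) for S100a8, 2.91 ± 0.96 for S100a9 and 2.90 ± 0.87 for Ngp. All 3 had an unadjusted p under 0.05, as did 5.25% of all genes with old higher. None passed after adjustment by edgeR, and their old and young values overlapped. The listed T and NK cell markers summed to 0.470 to 2.68 CPM over the 8 libraries, and none had enough counts for the test. Among markers of cells outside the immune system, the median log2 fold change was -0.19 for granule neurons and -0.09 for Purkinje cells. It was -0.17 for astroglia, -0.20 for oligodendrocytes, 0.23 for endothelium and 1.26 for choroid plexus. The part of any of these cells in the cathepsin values was not tested.

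The genes closest to each variable cathepsin in pattern were ranked by the root mean square difference of log2 CPM, centred on each gene's mean, over the 8 libraries. This covers the 4 cathepsins whose log2 CPM spanned at least 1, against 12139 genes. For Ctss the closest were C1qb (0.104), C3ar1 (0.114), C1qc (0.141), Ifitm3 (0.148) and H2-K1 (0.158), where the first and the third encode C1q complement subunits, C3ar1 the C3a receptor, Ifitm3 an interferon-induced membrane protein and H2-K1 an MHC class I heavy chain. For Ctsd they included the organic anion transporter Slco2b1 (0.139), the serpin Serpinb9 (0.142) and Tgfb1 (0.15). For Ctsc they included Cyth4 (0.155), the interferon regulatory factor Irf1 (0.158), Serpinb9 (0.167) and the monoamine oxidase Maob (0.196). For Ctsh they were the toll-like receptor chaperone Unc93b1 (0.098), the cytokine gene Il33 (0.125), Ifit2 (0.15), the lysosomal lipase Lipa (0.164) and Trim21 (0.172). These are ranks over the same 8 libraries, and the microglia genes among them share the libraries' order from old 3 to old 4.

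No member of the lists of lysosome genes or of MHC class II genes passed by edgeR over all genes tested. Among other cathepsins, Ctso, Ctsw and Ctsk had enough counts, with log2 fold changes of 0.09 ± 0.13, 0.17 ± 0.26 and -0.26 ± 0.24 (SE). Ctse and Ctsg were at 0 in some libraries, with 3 and 1 counts at most. Of the inhibitors, 4 were tested, with a median of 0.01. Cst3, the abundant cystatin C, had an old mean of 134 ± 18.2 CPM (SD, n = 4) and a young mean of 129 ± 24.7 CPM (SD, n = 4). For Cst7, the cystatin F of myeloid cells that restrains cathepsin C, these were 3.59 ± 1.30 and 2.5 ± 0.376 CPM, a log2 fold change of 0.52 ± 0.29 (SE).

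The 11 genes of cathepsin delivery and maturation had a median of -0.03, with 4 above 0 and 7 below, and none had an unadjusted p under 0.05. Gnptab, which starts the mannose 6-phosphate tag, had a log2 fold change of -0.13 ± 0.08 (SE), Igf2r, a receptor of that tag, -0.09 ± 0.10, and Psap, the saposin precursor, -0.08 ± 0.07. Of 35 tested lysosomal hydrolases other than cathepsins, 22 were positive, with a median of 0.08. At an unadjusted p under 0.05, 5 were higher in old and 1 lower, where 5.25% and 5.76% of all genes were. Lipa and Man2b1, a mannosidase, had 0.60 ± 0.16 and 0.34 ± 0.09. Of 19 lysosomal membrane genes, 13 lay above 0 and the median was 0.04, and Cd68, a macrophage lysosomal protein, Tpcn2, a lysosomal channel, and Lamp2 had 0.99 ± 0.27, 0.42 ± 0.13 and 0.32 ± 0.09.

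The 18 genes of the V-ATPase, the pump that acidifies the lysosome, had a median of -0.04, with 13 negative. Atp6v1g2 had -0.22 ± 0.08 (SE), Atp6v0e2 -0.15 ± 0.07 and Atp6v0d1 -0.17 ± 0.09. Of 16 genes of the TFEB family and its control, 7 were positive, with a median of -0.05, such as Mitf, a TFEB relative, at 0.26 ± 0.11, Fnip1 at 0.24 ± 0.09 and Lamtor1 at -0.21 ± 0.10. The MHC class II genes, whose invariant chain Cd74 is cut by cathepsin S, were positive in 6 of 6 tested, with a median of 0.76. The old mean of Cd74 was 7.41 ± 2.88 CPM (SD, n = 4), its young mean 3.68 ± 1.39 CPM (SD, n = 4). Those of H2-Aa, a class II chain, were 6.69 ± 5.20 and 2.08 ± 1.02 CPM, a log2 fold change of 1.66 ± 0.61 (SE) that is above that of Ctss with a wider error, and those of the class II transactivator Ciita 14.5 ± 0.788 and 11.3 ± 1.38 CPM.

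**Figure D5:**
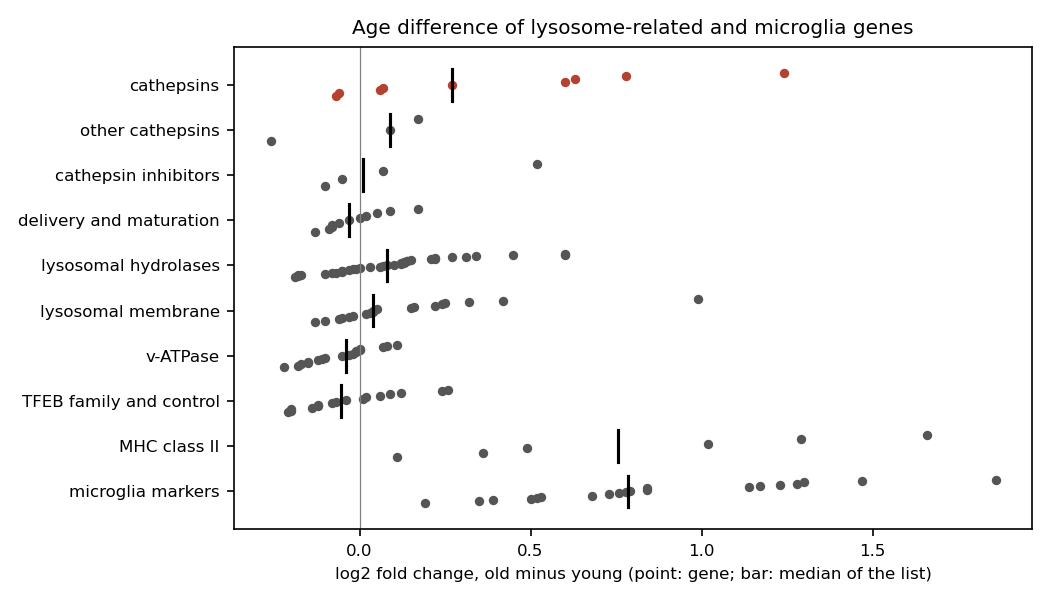
Log2 fold change, old minus young, of each tested gene (points) in the cathepsins and in lists of related genes, with the list median as a bar. The V-ATPase, delivery and TFEB lists centre on medians of -0.05 to -0.03, the cathepsins on 0.27 and the microglia markers on 0.78.

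The 2 sexes of each age were compared in the same fit. None of the 9 cathepsins passed for sex, where 0.0423% of all genes did. At an unadjusted p under 0.05, 1 of 9 was higher in females, Ctss, against 2.62% of genes, or 4.76% in either direction. Its log2 fold change, female minus male, was 0.54 ± 0.23 (SE), with an adjusted p of 0.930 by edgeR, and 0.20 without old 4. The values of the other 8 ran from 0.03 for Ctsb and Ctsz to 0.37 ± 0.19 for Ctsd, which was 0.15 without old 4.

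The age difference was also compared between the sexes, in a fit of 4 cells of 2 mice. Ctss averaged 32.7 CPM in old and 10.5 CPM in young females, against 17.9 and 10.5 CPM in males. Ctsd averaged 183 and 93.5 CPM in females and 112 and 92.7 CPM in males, and Ctsc 17.7 and 7.01 CPM against 11.2 and 9.67 CPM. The difference of the log2 fold changes, female minus male, was 0.85 ± 0.41 (SE) for Ctss, 0.70 ± 0.29 for Ctsd and 1.14 ± 0.48 for Ctsc. No cathepsin and none of the 14191 genes passed edgeR's interaction test (0.0% called), while 2 of the 9, Ctsc and Ctsd, had an unadjusted p under 0.05, against 2.3% of genes, and DESeq2 called 1 gene, none of them a cathepsin. Old 4, the highest library, is a female, and without it the differences were 0.37 for Ctss, 0.33 for Ctsd and 0.83 for Ctsc, whose value was 0.71 without old 3 and 1.72 without old 1.

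The genes lie apart in the genome, in GENCODE M21 coordinates of GRCm38. Ctss is on chromosome 3 at 95526786 to 95556403, Ctsd on chromosome 7 at 142375911 to 142388038, Ctsc on chromosome 7 at 88278085 to 88310888 and Ctsh on chromosome 9 at 90054152 to 90076089. Ctsb is on chromosome 14 at 63122462 to 63145923, Ctsl on chromosome 13 at 64359337 to 64370890 and Ctsf on chromosome 19 at 4855130 to 4860918. Ctsa and Ctsz are both on chromosome 2, at 164832873 to 164841032 and at 174427493 to 174439039. These are whole gene spans, all annotated as protein-coding, and counts cover a gene as a unit.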

How the data were processed

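Total RNA of frozen cerebellum was purified with Trizol and columns and made into libraries depleted of ribosomal RNA, per the labels' protocols. The authors deposited raw counts per gene, 1 table per library, with no normalization, per the file headers. The submitters' processing notes name featureCounts, STAR 2.7.5b, Trimmomatic 0.39 and SAMtools 1.10, with the builds GRCm38 and mm10. For the annotation, the strand setting and multiply mapping reads, nothing is given in the sources used here. Up to 24 gene names had turned into dates in 7 of the tables and were restored by row from the table without dates, after the other names were checked to match row by row. Every pair of libraries within an age differed beyond sampling noise.

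From the counts, genes passing edgeR's filterByExpr (minimum 10 counts) were kept, 14191 of 17700. Age was tested by quasi-likelihood in edgeR 4.0.16 under R 4.3.3, with TMM scaling, robust dispersions by its newer method, and terms for age and sex in all 8 libraries. Each SE was derived from the fold change and its F statistic. Log2 CPM used a prior count of 2. Alternatives included DESeq2 1.42.0 and limma-voom (limma 3.58.1), and the tests were run on simulated counts. Exon lengths are unions of GENCODE M21 exons. Named list genes are the 3 with the smallest p of each list plus any past the threshold. Some genes these rules select are not reported here. The members, lists, tests and alternatives were chosen with earlier results of these data known. Replicate numbers in the titles did not pair the samples.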

Additional observations from a re-analysis of the deposited data

Results flagged for a closer look

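Among the 18 groups of 4 values of the cathepsins (9 genes at 2 ages), 2 had an end value set apart from the other 3 by more than Dixon's 95% limit for 4 values, and chance gives about 1 in 20. Ctsb was at 406 CPM in old 4, against 352 to 359 CPM in the other old libraries, a gap of 0.870 of the range. In young 2 the level of Ctsh was 5.49 CPM, while the other young libraries lay at 2.95 to 3.23 CPM, a gap of 0.890 of the range.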

How the results depend on the processing

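For age, the count of genes past the threshold was 17, and 125 by DESeq2, 1 by limma-voom, 26 with the older edgeR dispersions, 103 with age in weeks, 127 after adding a granule neuron covariate, 0 after adding a choroid plexus covariate, 184 without old 2, old 3 and young 4, and 0 to 63 with 1 library left out. The count of cathepsins past it was 0, and 2 by DESeq2, 1 with age in weeks, 1 with the granule neuron score, 2 without those 3 libraries and 0 to 1 with 1 library left out (1 without old 2). For sex the count of genes was 6, and 40 without the 3 libraries and 4 to 46 with 1 left out. For the interaction it was 0, and 1 by DESeq2 and 0 to 2 with 1 left out. The cause of these shifts was not tested, and the fit without the 3 libraries also leaves out the old mice of 83 weeks. The replicate block left 1 gene for age and no cathepsin, and same-numbered libraries deviated from their age means with correlations of 0.156, -0.222, -0.048 and -0.252, each old library correlating best with another number, so the titles' numbers were not taken as pairs. Of 179 alternative age values of the cathepsins, 1 changed sign, Ctsb (-0.001 to 0.08 with 1 library left out). Among other named genes, sign changes were Ctso (granule neuron score -0.01, 1 left out -0.01 to 0.18), Ctsw (without the 3 libraries -0.03, 1 left out -0.04 to 0.39), Cst3 (choroid score -0.06, granule score -0.07, 1 left out -0.01 to 0.20), Cst6 (granule score 0.07, 1 left out -0.25 to 0.04), Igf2r (1 left out -0.16 to 0.01) and Mrc1 (granule score -0.17, 1 left out -0.23 to 0.53). For sex they were Ctsb (replicate block -0.04, 1 left out -0.02 to 0.06), Ctsc (1 left out -0.11 to 0.35), Ctsh (replicate block -0.34, 1 left out -0.16 to 0.33) and Ctsz (without the 3 libraries -0.01, 1 left out -0.10 to 0.13), and for the interaction Ctsf (1 left out -0.14 to 0.01) and Ctsl (-0.02 to 0.26). Ctss relative to the microglia markers stayed between 0.28 and 0.44, with exact permutation p of 0.0571 to 0.171; without old 2, old 3 and young 4 the test cannot give less than 0.1, so that p says nothing. The low counts of Ctsh limit what its values can show.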
